A study of Arabidopsis thaliana with 9 samples.

Results

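The sugar transporter families of Arabidopsis thaliana were examined as 38 genes out of 24635 measured, chosen by symbol: the names SUC, SUT, SWEET, STP, TMT, PMT or INT followed by a number. They fall into 13 SWEET, 9 STP, 7 SUC (2 of them under the names SUT2 and SUT4), 4 INT, 3 TMT and 2 PMT genes, and all 38 are loci of these families. Another 9 family loci are in the data under other symbols and were not members, and 6 more (SUC8, SUC9, SWEET6, SWEET9, PMT1 and PMT2) were not analysed here. RNA came from whole 6-day seedlings on Murashige and Skoog medium at 0.5 strength with 1% sucrose, under days with 16 hours of light.

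The libraries fall into 3 groups of 3: the wild type Col-0, the line melinoe, and Col-0 given riboflavin. The line melinoe is an EMS mutant in FMN/FHY (AT4G21470), the gene of an enzyme that makes FMN from riboflavin and also hydrolyses FMN, and the labels do not say whether other EMS mutations remain in it. The treated Col-0 plants received riboflavin for 8 hours in the dark, at 0.6 mM by the sample labels and 0.2 mM by the design text. The FMN/FHY transcript had 41.3, 44.6 and 40.2 CPM in Col-0, 36.5, 39.0 and 38.1 in melinoe and 110, 111 and 113 with riboflavin (CPM: counts scaled to library size, with TMM factors over all 9 libraries), and a transcript level does not check a point mutation. Neither source gives a mock treatment or the hour at which untreated plants were collected, so riboflavin and the hours of dark cannot be told apart. Both comparisons with Col-0 use the same 3 Col-0 libraries, so their fold changes are set side by side below without counting how often they match. Library totals were 19964397 to 21421418 counts.

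Plants move sugar between cells and compartments by several families of membrane carrier. The SUC family includes proton-coupled sucrose symporters, and among them SUC2 loads sucrose into the phloem. SWEETs are facilitators that let sugars pass down their gradient, STPs carry hexoses into cells with protons, TMTs load sugars into the vacuole, PMTs carry polyols and monosaccharides, and INTs carry inositol.

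Sequences of SUC1, SUC2 and SUC5 are shown first, and all 3 were higher in melinoe and lower with riboflavin. INT4 and PMT6 were called the same way, and SWEET3 and SWEET12 were lower in melinoe and higher with riboflavin. The rises of SUC2 and INT4 in melinoe were small and were lost in some alternative fits, given below. The windows of INT4, PMT6, SWEET3 and SWEET12 held no CACGTG and are not shown. Nor did those of STP4, INT2 and SUC7, which at least doubled against Col-0 in 1 comparison and are not shown either. The windows shown are a selection that holds CACGTG, and its link to the direction of change was not tested. Each line gives 250 bases upstream of the annotated start in TAIR10.1 (RefSeq), 5′ to 3′ on the gene's strand. Capitals mark CACGTG, the G-box bound by bZIP and bHLH factors, together with the overlapping ACGTGNC on either strand. SUC1 lies at chr1:27053780-27054029 on the plus strand, SUC2 at chr1:8033157-8033406 on the minus strand and SUC5 at chr1:27058131-27058380 on the plus strand.
SUC1: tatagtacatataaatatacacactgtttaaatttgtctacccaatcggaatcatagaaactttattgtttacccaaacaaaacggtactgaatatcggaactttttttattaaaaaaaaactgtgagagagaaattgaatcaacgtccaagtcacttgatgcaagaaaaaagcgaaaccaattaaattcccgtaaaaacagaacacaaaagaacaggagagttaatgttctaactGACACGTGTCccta
SUC2: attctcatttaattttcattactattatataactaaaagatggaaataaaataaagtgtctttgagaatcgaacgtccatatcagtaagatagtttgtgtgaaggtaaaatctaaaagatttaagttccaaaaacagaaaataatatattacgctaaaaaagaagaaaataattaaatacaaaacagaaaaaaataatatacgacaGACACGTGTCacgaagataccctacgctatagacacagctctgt
SUC5: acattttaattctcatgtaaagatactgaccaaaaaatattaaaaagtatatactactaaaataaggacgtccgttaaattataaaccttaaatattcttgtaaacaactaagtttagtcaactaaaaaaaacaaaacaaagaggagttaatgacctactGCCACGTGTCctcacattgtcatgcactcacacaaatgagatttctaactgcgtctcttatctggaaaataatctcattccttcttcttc
The G-box core in these windows lay 12 to 7 bases upstream of the start in SUC1, 42 to 37 in SUC2 and 88 to 83 in SUC5. Across the members, 6 of 38 windows (15.8%) held CACGTG, against 6.49% of 27438 promoters of the same length. The other 3 were INT1, not called against Col-0, STP7, higher in both comparisons, and SWEET4, removed by the filter on low counts. The letters of the sugar-response elements TATCCA and TTATCC were in 26.3% and 23.7% of member windows, against 13.6% and 12.5% of all promoters. These elements overlap as TTATCCA, so the shares are not separate. INT1, INT2, PMT6, STP1, STP2, SWEET4 and SWEET8 are in both. TTGACC, the W-box bound by WRKY factors, was in 13.2% against 12.2%. These matches describe letters in a window and were not tested.

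SUC7 (AT1G66570) is so like its relatives that reads could be assigned to the wrong copy. For SUC6 to SUC9 the ungapped stretch of 90 coding bases with the most differences between copies is shown. It was picked for its differences and is not typical of the whole coding sequence. Capitals mark the 25 positions in these 90 bases at which the copies differ. The window covers coding bases 311 to 400 in SUC7 and 314 to 403 in the others.
SUC7: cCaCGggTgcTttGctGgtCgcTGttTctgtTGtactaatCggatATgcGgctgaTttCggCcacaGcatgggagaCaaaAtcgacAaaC
SUC6: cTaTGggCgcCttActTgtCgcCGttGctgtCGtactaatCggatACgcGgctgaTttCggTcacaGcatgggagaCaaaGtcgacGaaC
SUC8: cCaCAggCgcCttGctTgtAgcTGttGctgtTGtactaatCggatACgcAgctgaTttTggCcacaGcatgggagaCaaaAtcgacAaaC
SUC9: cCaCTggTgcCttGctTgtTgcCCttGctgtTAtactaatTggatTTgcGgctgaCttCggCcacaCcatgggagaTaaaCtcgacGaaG
Over the whole coding sequence SUC7 shared 93.6% of bases with SUC8, 93.5% with SUC6 and 89% with SUC9. SUC6 and SUC8 shared 93.7%. Outside these copies the closest pair of SUC genes was SUC1 and SUC5, at 83.5%, and these neighbours lie 1916 bases apart on chromosome 1.

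Of the 38 members, 20 reached an authors' mean of at least 10 TPM in some group (transcript abundance scaled for length and depth), 6 peaked between 1 and 10 TPM, and 12 stayed under 1 TPM in every group. The filter on low counts removed these last 12 from every comparison, and none had more than 11 counts in any library. In the fit without a filter SWEET4 was the 1 of them called. Its counts were 1, 3 and 1 in Col-0, 0, 1 and 1 in melinoe and 6, 11 and 2 with riboflavin, where it was higher than in Col-0 (log2 fold change 1.90, standard error 0.735, edgeR adjusted p = 0.0244) and than in melinoe (adjusted p = 0.00306). In the authors' deposited table its q-value with riboflavin was 0.0798. The 12 include STP2, STP6, STP9 and STP11, known for expression in pollen, and SWEET8, which acts in pollen wall formation. The pollen markers measured summed to at most 0.69 TPM in any library, on TPM recomputed from the counts.

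By the authors' deposited means, the most abundant members in Col-0 were STP1 at 170 TPM, SWEET11 at 146, SUC1 at 108, SUC2 at 97.6, PMT6 at 91.5 and STP4 at 79.2. In melinoe the highest was STP4 at 212 TPM, and with riboflavin it was STP1 at 255. These deposited means carry no error, so neighbours in that order were not tested. Of the members that reached 10 TPM, SWEET2 was the lowest in Col-0 apart from SUC7, at 11.3 TPM against 0.19.

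The numbers of members called were read against all genes tested by edgeR's quasi-likelihood test at an adjusted p under 0.05. In melinoe 15 of 25 tested members changed, 11 higher and 4 lower, where 50.6% of all genes were called (25.4% higher and 25.2% lower). Of all genes called there 50.2% were higher, against 39.2% when TPM recomputed from the counts was tested with limma on log2(TPM + 1). That test called 9 members higher and 8 lower. With riboflavin 21 of 26 changed, 13 higher and 8 lower, where 74.2% of all genes were called (36.8% higher and 37.4% lower). Between riboflavin and melinoe 20 of 26 differed, 11 higher and 9 lower in riboflavin, with a background of 74.1% (37% higher and 37.1% lower). Both riboflavin counts include SUC7 as higher, and it is also among the doublings below. SUC7 passed the filter on low counts only through the riboflavin libraries, where it is high. The median size of the log2 fold change over tested members was 0.21, 0.46 and 0.51 in these 3 comparisons, and 0.19, 0.41 and 0.40 over all genes. At least a doubling was measured for STP4 in melinoe and for SUC7 and INT2 with riboflavin, and at least a halving for SWEET3 in melinoe and SUC5 with riboflavin (6.07% of all genes passed either bound in melinoe and 17.6% with riboflavin). Between riboflavin and melinoe 6 members passed, against 17% of all genes: SUC7, INT2 and SWEET3 were higher in riboflavin, and SUC1, SUC5 and STP4 lower. SUC1 lay just inside the halving bound at a log2 fold change of -1.01, and PMT6 just outside it at -0.9988.

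**Figure D1:**
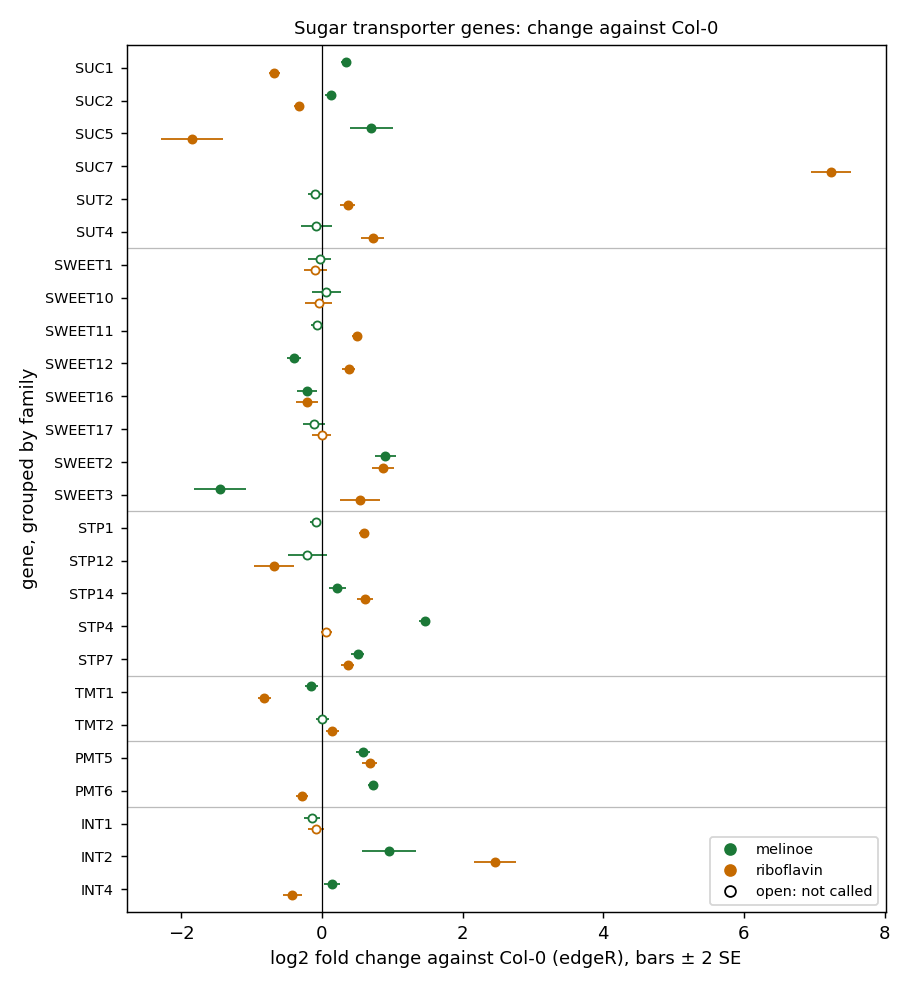
Log2 fold change against Col-0 (x axis) of each tested member (y axis, grouped by family), for melinoe in green and riboflavin in orange, with bars of 2 standard errors from edgeR and open points for members not called. SUC7 with riboflavin, at 7.24, lies far from all others, and STP4 and SWEET3 lie farthest from 0 in melinoe.

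The sucrose symporters SUC1, SUC2 and SUC5 were higher in melinoe and lower with riboflavin. SUC1, which is known from roots and pollen, had 179, 178 and 167 CPM in the Col-0 libraries, 220, 220 and 226 in melinoe and 108, 109 and 110 with riboflavin. No library of any group overlapped another group. Such a lack of overlap was common: 11474 of 20277 genes tested showed it between melinoe and Col-0. It held for 15390 of 20356 between riboflavin and Col-0, and for 15298 of 20344 between riboflavin and melinoe. SUC1 rose by 0.34 on the log2 scale in melinoe (standard error 0.038, edgeR adjusted p = 2.28e-08) and fell by 0.68 with riboflavin (standard error 0.039, adjusted p = 8.44e-15). The difference between riboflavin and melinoe was -1.01 (edgeR adjusted p = 4.03e-21).

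SUC2, the phloem loader of companion cells, had 151, 145 and 141 CPM in Col-0, 160, 159 and 160 in melinoe and 115, 117 and 116 with riboflavin. The groups did not overlap. Its rise in melinoe was small, at 0.13 (edgeR adjusted p = 0.00731), and did not pass when TPM recomputed from the counts was tested with limma (adjusted p = 0.144) or without Col-0 library C (adjusted p = 0.0519), while with riboflavin it fell by 0.32 on the log2 scale (adjusted p = 2.24e-08). The 4 phloem markers measured summed to 240 to 255 TPM in Col-0, 213 to 216 in melinoe and 205 to 220 with riboflavin (recomputed TPM), most of it from PP2-A1, at a mean of 174 TPM in Col-0. With riboflavin PP2-A1 and SEOR1 fell (-0.33 and -0.30), NAKR1 rose (0.55, edgeR adjusted p = 2.43e-07) and APL was not called, and in melinoe PP2-A1 and NAKR1 fell (-0.14 and -0.26) and the other 2 were not called. Their part in the SUC2 values was not tested. In whole seedlings fewer cells of a type and less RNA per cell cannot be told apart.

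SUC5, a symporter known from the endosperm that also carries biotin, was much less abundant. Its libraries held 2.43, 2.39 and 2.85 CPM in Col-0, 4.71, 3.40 and 4.43 in melinoe and 0.724, 0.525 and 0.877 with riboflavin, with no overlap. It rose by a log2 fold change of 0.70 in melinoe (edgeR adjusted p = 0.000378) and fell by 1.84 with riboflavin (adjusted p = 2.89e-08), a 3.59-fold drop. The difference between riboflavin and melinoe was -2.54 (adjusted p = 5.18e-12).

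SUC7 rose from near 0 with riboflavin. Its counts were 5, 6 and 3 in Col-0 and 6, 3 and 12 in melinoe, against 722, 704 and 660 with riboflavin, where its level reached 27.4 TPM by the authors' mean. The summed counts per scaled library were 155 times those of Col-0 (95% exact interval 91.9 to 283, counting error only). SUC7 passed the filter on low counts only through the riboflavin libraries, where it is high. In the fit without a filter the log2 fold change was 7.24 against Col-0 (edgeR adjusted p = 3.91e-28). Against melinoe SUC7 changed by 6.59 in that fit (adjusted p = 1.06e-35). In melinoe the filter on low counts removed it. There the summed count was 21 against 14 in Col-0, a ratio of 1.59 (95% exact interval 0.771 to 3.38), and the fit without a filter gave a log2 fold change of 0.65 (standard error 0.55, edgeR adjusted p = 0.365). Given the bases shared over the whole coding sequence, which of the copies SUC6 to SUC9 the reads came from is uncertain. SUC6 had at most 1 count in any library, and SUC8 and SUC9 are not among the genes measured. The assignment of single reads was not checked. Whether the SUC7 transcript gives a working carrier was not tested.

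SUT2 and SUT4, also named SUC3 and SUC4, were not called in melinoe and rose with riboflavin. SUT4, which exports sucrose from the vacuole, had an authors' mean of 5.15 TPM in Col-0, 4.71 in melinoe and 8.45 with riboflavin, a log2 fold change of 0.72 (edgeR adjusted p = 1.05e-08). SUT2 had 32.4, 33.1 and 31.6 CPM in Col-0, 30.8, 31.2 and 29.0 in melinoe and 43.3, 41.7 and 39.8 with riboflavin, a change of 0.36 (adjusted p = 3.94e-07) that leaves the riboflavin libraries above all others. In melinoe SUT2 was called lower on recomputed TPM (limma adjusted p = 0.0361).

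**Figure D2:**
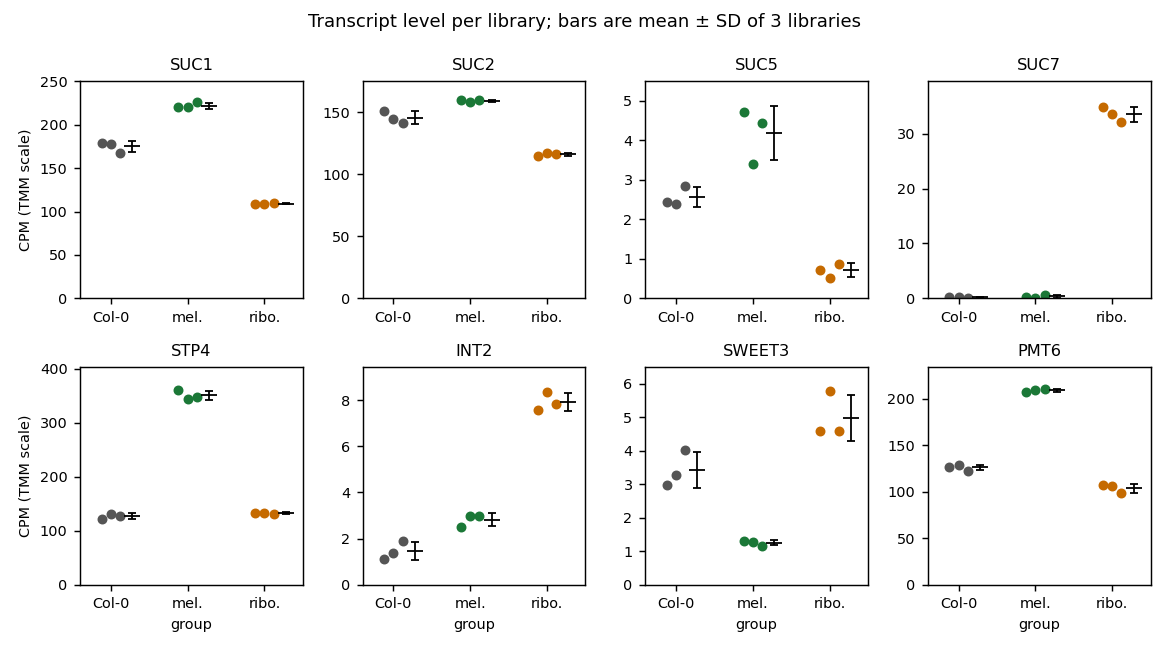
Level of 8 members in each library (points; CPM on the TMM scale, y axes from 0 and different in each panel) for Col-0, melinoe (mel.) and riboflavin (ribo.), with the mean ± SD of 3 libraries in black. SUC1, SUC2, SUC5 and PMT6 are highest in melinoe and lowest with riboflavin, while SUC7 is near 0 outside the riboflavin libraries.

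Among the members, the largest rise called in melinoe was in the hexose symporters (STP), and the family locus MSS1, outside the symbol rule, rose more. STP4, known from sink tissues and from wounding, had 122, 132 and 128 CPM in Col-0 and 361, 345 and 347 in melinoe, a 2.76-fold rise (log2 fold change 1.46, standard error 0.039, edgeR adjusted p = 7.31e-22). With riboflavin its libraries held 133, 134 and 131 CPM and overlapped Col-0 (log2 fold change 0.06, adjusted p = 0.15). The riboflavin libraries were below melinoe by 1.39 on the log2 scale (adjusted p = 8.96e-25).

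STP1, a main route of hexose uptake in seedlings, had 318, 314 and 314 CPM in Col-0, 296, 279 and 314 in melinoe and 492, 459 and 477 with riboflavin. The riboflavin libraries were above all others, with a log2 fold change of 0.60 (edgeR adjusted p = 1.64e-14), and melinoe was not called (-0.09, adjusted p = 0.0658). It was called lower there on recomputed TPM (limma adjusted p = 0.0121), under upper quartile scaling (edgeR adjusted p = 0.028) and without melinoe library C (adjusted p = 0.0114). STP14, a galactose carrier, rose by 0.22 in melinoe and 0.61 with riboflavin, from 21.5, 21.5 and 21.8 CPM to 25.6, 24.4 and 25.8 and to 32.3, 33.8 and 33.0. STP7, which carries arabinose and xylose, rose by 0.51 and 0.37, from 42.8, 42.5 and 44.3 CPM to 57.5, 63.8 and 63.1 and to 53.9, 57.3 and 55.4. The riboflavin libraries of STP7 stood below those of melinoe by 0.13, which no longer passed without riboflavin library A (adjusted p = 0.0641), without melinoe library B or C, or on recomputed TPM (limma adjusted p = 0.116).

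STP12 fell with riboflavin, from an authors' mean of 3.86 TPM in Col-0 and 3.21 in melinoe to 2.39 (log2 fold change -0.68, edgeR adjusted p = 0.000104). Its annotated end overlaps that of FMN/FHY by 20 bases on the opposite strand, and whether reads were counted by strand is not given in the sources used here. Overlapping opposite-strand genes are also annotated for STP1, STP7, TMT1, TMT2 and SWEET1, and for INT3 and STP9, which the filter removed.

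Among the SWEETs, the phloem parenchyma exporters SWEET11 and SWEET12 rose with riboflavin, and SWEET12 fell in melinoe. SWEET11 had 133, 134 and 143 CPM in Col-0, 131, 127 and 132 in melinoe and 195, 191 and 193 with riboflavin. The riboflavin libraries were above all others (log2 fold change 0.50, edgeR adjusted p = 3.23e-12), and melinoe was not called (-0.07, adjusted p = 0.145) except on recomputed TPM, where it was lower (limma adjusted p = 0.0153). SWEET12 had 43.2, 46.1 and 44.1 CPM in Col-0, 35.7, 34.2 and 31.6 in melinoe and 55.2, 59.6 and 58.6 with riboflavin, with no overlap between groups. Its changes were -0.40 (adjusted p = 4.48e-07) and 0.38 (adjusted p = 5.22e-08), and 0.79 between riboflavin and melinoe.

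SWEET2, a glucose carrier of the vacuole membrane, rose by 0.90 in melinoe (edgeR adjusted p = 7.11e-11) and 0.87 with riboflavin (adjusted p = 5.25e-11). Its libraries held 13.2, 11.7 and 14.6 CPM in Col-0, 22.7, 25.8 and 25.2 in melinoe and 22.4, 24.3 and 25.4 with riboflavin. The melinoe and riboflavin libraries overlapped each other. SWEET3 was scarce and fell 2.74-fold in melinoe (log2 fold change -1.45, adjusted p = 1.89e-07) but rose by 0.54 with riboflavin (adjusted p = 0.00112). It had 2.98, 3.28 and 4.02 CPM in Col-0, 1.32, 1.26 and 1.17 in melinoe and 4.59, 5.78 and 4.58 with riboflavin, with no overlap.

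The vacuolar fructose carriers SWEET16 and SWEET17 moved little. SWEET16 had 14.0, 14.4 and 14.9 CPM in Col-0, 12.4, 12.5 and 12.4 in melinoe and 12.3, 13.6 and 11.4 with riboflavin, and both calls (-0.21 in each comparison) ended without Col-0 library C (edgeR adjusted p = 0.058 and 0.0554) and under DESeq2, and the riboflavin call also without riboflavin library C (adjusted p = 0.12). SWEET17 had 15.9, 17.0 and 15.2 CPM in Col-0, 13.5, 16.6 and 14.5 in melinoe and 16.7, 15.4 and 15.8 with riboflavin, and was not called. Neither SWEET1, a glucose carrier at the plasma membrane, nor SWEET10 was called against Col-0, with SWEET1 at 11.9, 11.0 and 11.1, then 11.4, 11.5 and 10.4, then 9.85, 10.3 and 11.7 CPM. The authors' means of SWEET10 were 8.00, 8.00 and 7.67 TPM.

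The vacuolar sugar loader TMT1 fell with riboflavin from 78.1, 75.9 and 80.9 CPM in Col-0 to 46.3, 42.0 and 44.4, a log2 fold change of -0.82 (edgeR adjusted p = 7.48e-15). In melinoe it had 75.3, 65.9 and 70.7 CPM, and its call of -0.15 ended without melinoe library B (adjusted p = 0.0954). TMT2 had 43.5, 42.3 and 42.4 CPM in Col-0, 42.7, 42.8 and 43.4 in melinoe and 46.1, 47.4 and 48.1 with riboflavin. Its rise of 0.15 with riboflavin (adjusted p = 0.00633) did not pass under upper quartile scaling (adjusted p = 0.107).

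The polyol carriers differed between the groups. PMT6 had 127, 128 and 123 CPM in Col-0, 207, 209 and 211 in melinoe and 107, 106 and 98.0 with riboflavin, with changes of 0.73 (edgeR adjusted p = 2.36e-15) and -0.28 (adjusted p = 8.37e-07). The riboflavin libraries were 2.00-fold below melinoe (adjusted p = 3.08e-20). PMT5, a broad carrier of linear polyols and monosaccharides, rose by 0.58 in melinoe and 0.68 with riboflavin, from 42.9, 38.6 and 42.2 CPM to 62.4, 60.0 and 62.6 and to 65.2, 61.7 and 70.6. The difference of PMT5 between riboflavin and melinoe, 0.11, passed in the full fit (adjusted p = 0.0399). This call was lost without riboflavin library C (adjusted p = 0.312), riboflavin library A or any melinoe library. Upper quartile scaling (adjusted p = 0.298), a mean count of at least 50 (adjusted p = 0.0667) and all 9 libraries in 1 fit (adjusted p = 0.0828) also lost it. So did DESeq2 (adjusted p = 0.091).

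INT2, an inositol symporter of the plasma membrane, rose in both comparisons. Its libraries held 1.10, 1.36 and 1.87 CPM in Col-0, 2.48, 2.97 and 2.97 in melinoe and 7.58, 8.36 and 7.84 with riboflavin. The groups did not overlap, with log2 fold changes of 0.96 in melinoe (edgeR adjusted p = 0.000151), 2.46 with riboflavin (adjusted p = 3.04e-14) and 1.51 between riboflavin and melinoe (adjusted p = 2.37e-12). INT4, also at the plasma membrane, had 27.3, 25.6 and 24.9 CPM in Col-0, 30.2, 27.5 and 28.2 in melinoe and 21.0, 19.3 and 17.7 with riboflavin. It fell by 0.42 with riboflavin (adjusted p = 2.41e-06), and its rise of 0.14 in melinoe (adjusted p = 0.0431) was lost in 9 alternatives, among them DESeq2 (adjusted p = 0.131) and leaving out Col-0 library B or C or melinoe library A or C. INT1, which exports inositol from the vacuole, had 32.4, 29.7 and 29.9 CPM in Col-0, 27.3, 26.5 and 29.8 in melinoe and 29.9, 28.1 and 28.4 with riboflavin, and was not called (adjusted p = 0.0509 and 0.155). In melinoe it was called lower without Col-0 library B or melinoe library C (adjusted p = 0.0404 and 0.0181), with the letters as a replicate block (adjusted p = 0.0449), under upper quartile scaling (adjusted p = 0.0289), with a mean count of at least 50 (adjusted p = 0.0433), with all 9 libraries in 1 fit (adjusted p = 0.0477) and on recomputed TPM (limma adjusted p = 0.0211). It was also called lower with riboflavin under upper quartile scaling (adjusted p = 0.0169).

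Summed within families, on TPM recomputed from the counts, the STP members held 347 ± 0.957 TPM in Col-0, 484 ± 10.2 in melinoe and 471 ± 7.28 with riboflavin (SD, n = 3). The SWEET sum was 290 ± 7.54, 263 ± 2.36 and 379 ± 3.82, and the SUC sum 274 ± 9.44, 306 ± 1.17 and 240 ± 1.25. PMT members summed to 140 ± 2.57, 218 ± 1.70 and 140 ± 1.76 TPM, and TMT members to 63.6 ± 1.83, 57.0 ± 2.30 and 46.0 ± 0.875. For SWEET, SUC and TMT the 3 groups did not overlap, for PMT the melinoe libraries lay above both other groups, which overlapped, for STP the Col-0 libraries lay below those of both other groups, and for INT every library lay between 39.7 and 45.0 TPM. All members together held 1157 ± 9.70, 1369 ± 12.7 and 1317 ± 6.53 TPM. These sums leave out family loci under other symbols, some as abundant as members. In the same group order, mean recomputed TPM was 41.7, 50.9 and 45.9 for PMT4 and 51.0, 49.4 and 39.4 for STP3. For MSS1 it was 8.13, 27.1 and 63.7. Sums with such loci were not computed, and the order and overlap of groups could differ.

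**Figure D3:**
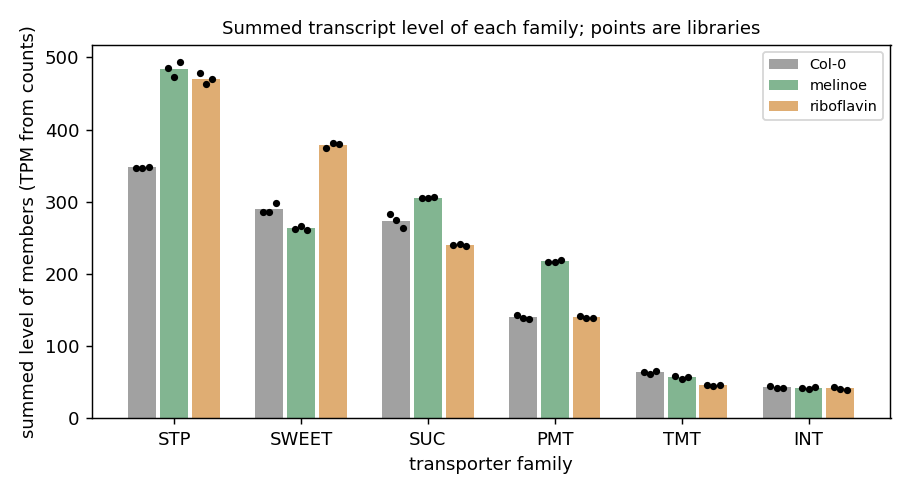
Summed level of the members of each family (y axis, TPM recomputed from the counts) as the mean of 3 libraries (bars, from 0) with each library as a point, for Col-0, melinoe and riboflavin. The STP sum is lowest in Col-0, the SWEET sum is highest with riboflavin, and the INT sum stays within 39.7 to 45.0 TPM.

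Of the 9 family loci outside the symbol rule, the largest change among those called was in MSS1, the name the data give to STP13, a stress-induced hexose symporter. Its authors' means were 6.70 TPM in Col-0, 22.4 in melinoe and 52.5 with riboflavin, with log2 fold changes of 1.79 and 2.98. Of these loci, 3 of 7 tested were higher and 0 lower in melinoe, against 25.4% and 25.2% of all genes, with 4 not called. The 3 include the scarce SWEET15, named SAG29 in the data, at a log2 fold change of 1.03 (edgeR adjusted p = 0.00537). SWEET15 passed the filter there only through the melinoe libraries, with 18, 22 and 26 counts against 16, 11 and 7 in Col-0. With riboflavin 3 of 6 were higher and 2 lower, against 36.8% and 37.4%. The 2 that fell were hexose symporters, STP3 by 0.36 on the log2 scale (edgeR adjusted p = 3.71e-08) and the scarce STP5 by 2.11 (adjusted p = 8.77e-06). STP5 passed the filter there only through the Col-0 libraries, with 21, 34 and 18 counts against 5, 5 and 6 with riboflavin.

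Enzymes and other carriers of sucrose use were listed separately, as 38 genes, 36 of them tested. In melinoe 12 were higher and 15 lower, where 25.4% and 25.2% of all genes were, and with riboflavin 17 were higher and 9 lower, where 36.8% and 37.4% of all genes were. CWINV1, a cell wall invertase that splits sucrose outside the cell, rose by 1.71 in melinoe (edgeR adjusted p = 6.25e-24), and also rose with riboflavin, at 1.24 (adjusted p = 1.12e-20). The sucrose synthase SUS4 rose by 1.72 in melinoe (adjusted p = 3.55e-20), and SUS3 rose by 3.39 with riboflavin (adjusted p = 2.64e-26). SPS4F, a sucrose-phosphate synthase, rose by 1.28 with riboflavin and had -0.03 in melinoe, where it was not called. The vacuolar invertase VI1 fell by 0.67 in melinoe, where the carrier SFP2 fell by 1.21, the glucose-phosphate carrier GPT2 by 0.97 and the neutral invertase INVC by 0.54. With riboflavin INVC rose by 1.02 and the carrier SFP1 by 1.60, while SFP2 fell by 1.70, the plastid maltose exporter MEX1 by 1.12 and the hexokinase gene HXK3 by 0.98.

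The 5 genes listed as raised by sugar starvation summed to 2030 to 2132 TPM in Col-0, 1287 to 1358 in melinoe and 3565 to 3590 with riboflavin (recomputed TPM). DIN1, at a mean of 1405 TPM in Col-0, made up most of that sum and fell by 0.87 on the log2 scale in melinoe and rose by 0.42 with riboflavin. In melinoe ASN1 and DRM1 also fell, DIN10 was not called and DIN2 rose by 1.42 (edgeR adjusted p = 4.29e-12). With riboflavin DIN2 rose by 7.43, from a mean of 2.91 TPM in Col-0 to 499. ASN1 rose by 2.10, from 145 to 621 TPM, DIN10 rose by 0.22 and DRM1 was not called. The mean of DIN1 with riboflavin was 1868 TPM. The 3 listed as raised by sugar summed to 23.1 to 25.6, 7.57 to 8.75 and 13.5 to 15.0 TPM. All 3 fell in melinoe, and with riboflavin BAM5 and APL3 fell and GPT2 rose by 0.68 (edgeR adjusted p = 1.7e-06). The leaf mesophyll markers CAB3 and RBCS1A summed to 9274 to 9413, 7288 to 7791 and 2641 to 2759 TPM, and the 4 root hair markers to 66.2 to 80.9, 34.0 to 42.8 and 62.3 to 63.7. Of the root hair markers EXPA7, COBL9 and PRP3 fell in melinoe, while with riboflavin EXPA7 rose by 0.55 (edgeR adjusted p = 9.16e-07), COBL9 and PRP3 fell, and RHD6 was called in neither. The 5 guard cell markers summed to 52.8 to 58.3, 50.8 to 52.4 and 35.9 to 47.8 TPM, and the 3 seed markers to 8.03 to 9.88, 7.35 to 7.81 and 5.84 to 6.997. Of the guard cell markers FAMA rose and KAT1 fell in melinoe, and MYB60, GC1 and KAT1 fell with riboflavin. Of the seed markers CRU1 fell in both comparisons and SESA1 rose by 1.40 in melinoe (edgeR adjusted p = 0.00147). SESA1 passed the filter there only through the melinoe libraries, with 12, 18 and 23 counts against 9, 5 and 7 in Col-0. The filter removed SESA1 with riboflavin and OLEO1 in both comparisons. The part of these sums in the transporter values was not tested.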

How the data were processed

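Polyadenylated RNA of 9 seedling libraries was sequenced on a DNBSEQ instrument, per the labels' protocols. Per the file headers, the authors deposited 2 tables, each with expected counts per gene and library, TPM, and their own log2 fold changes with p-values and q-values. Bowtie2, RSEM and DESeq2 with TAIR10 are named in the submitters' processing notes, without versions, and the design text names SOAPnuke 1.5.2 and HISAT2 2.0.4, so the aligner is not settled. The libraries were stranded, per the labels' protocols, but whether counting used strand is not given in the sources used here. The deposited q-values and log2 fold changes were used only beside the calls made here: at q under 0.05 the authors' deposited table calls 13 members in melinoe and 20 with riboflavin, all called here with the same sign.

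The tables were joined by gene identifier, and the Col-0 counts are identical in both. The tables hold 24242 and 24249 genes, 23856 in both. A gene in 1 table, always at 0 in Col-0, was set to 0 in the group of the other table, which enters only the comparison of riboflavin with melinoe and displays over all libraries. The deposited expected counts, of which 1.91% were not whole, were rounded. For a comparison only the libraries of its pair of groups were fitted, with edgeR 4.0.16 (R 4.3.3): filterByExpr (minimum count 10, minimum total 15), TMM scaling, the quasi-likelihood F test and Benjamini-Hochberg adjustment over all genes tested, called at an adjusted p under 0.05. The standard error is the size of the log2 fold change over the root of F. The fit was tested on simulated data.

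The 12 columns of single-library TPM were not used, because columns that name a group and not a sample were limited to 1 measure, the counts. Levels between genes are therefore the authors' deposited mean TPM. TPM recomputed from the counts and the longest RefSeq transcript of each gene was used for sums per library and was 0.673 to 1.21 times the authors' mean for members at 1 TPM or more. After values were seen, the display of single libraries and the overlap of groups were set to CPM on 1 TMM scaling over all 9 libraries; fits and calls were not changed by this. The letters A to C name columns and could not be matched to replicate numbers. The labels call the 3 libraries of each group biological replicates.

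Members and lists were chosen with earlier results of these data known. Members were named with library values if called with at least a doubling or halving against Col-0, if highest of their family in Col-0, or if at 10 TPM or more in a group; up to 8 genes per comparison were named from the sucrose list. MSS1 and the members singled out between riboflavin and melinoe were chosen after their values were seen. Promoters are 250 bases upstream in TAIR10.1, searched on both strands. Alternatives were DESeq2 1.42.0, other scalings and filters, all libraries in 1 fit, a replicate block, limma 3.58.1 on log2 TPM, and leaving out each library. Intervals cover counting error only.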

Additional observations from a re-analysis of the deposited data

How the results depend on the processing

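Leaving out a library in turn gave 9 to 11 members higher and 3 to 6 lower in melinoe, 13 higher and 7 to 8 lower with riboflavin, and 10 to 11 higher and 7 to 9 lower between riboflavin and melinoe. A bound of at least doubled or halved left 1 higher and 1 lower in melinoe, 2 and 1 with riboflavin, and 3 and 3 between them. Log2 of TPM recomputed from the counts plus 1 or plus 0.1 was also tested with limma, a choice made after the data were seen. It gave 8 members lower in melinoe in place of 4, adding SUT2, INT1, SWEET11 and STP1. It gave 9 higher in place of 11, losing INT4 and SUC2. In that test 39.2% or 39.3% of all calls in melinoe were higher, against 50.2% in edgeR; the cause was not tested. The planned test on deposited single-library TPM is not among the results, because those columns were set aside after they had been looked at; the recomputed TPM stands in for it. With the letters as a replicate block, 11 members were higher and 5 lower in melinoe, 13 and 8 with riboflavin, and 11 and 9 between them. The block made INT1 a call in melinoe. Deviations of same-letter libraries correlated at -0.0305 to 0.0434, so the letters were not taken as pairs.

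Signs reversed for members that were not called. In melinoe TMT2 was -0.0086 under upper quartile scaling, -0.048 and -0.050 on recomputed TPM, and -0.00058 to 0.018 without a library, and SWEET1 was -0.057 to 0.012 without a library. With riboflavin STP4 was -0.00058 under upper quartile scaling, and SWEET17 was -0.047 to 0.036 without a library. Between riboflavin and melinoe SWEET2 was 0.018 on recomputed TPM at either pseudocount and -0.077 to 0.029 without a library, SWEET16 was -0.038 under upper quartile scaling and -0.052 to 0.075 without a library, and SWEET1 was -0.13 to 0.0020 without a library. The filter on low counts removed 12 members from every comparison, and without it SWEET4 was called higher with riboflavin than in Col-0 and than in melinoe, which gave 14 and 12 members higher.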
